A study of Mus musculus with 14 samples.

Results

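Transcripts of the CLIP family and of the proteins it meets at growing microtubule ends were measured in Ocy454 cells, a mouse osteocyte-like cell line. The 9 genes were taken by name, with earlier results of these data known: the cytoplasmic linker protein genes *Clip1*, *Clip2*, *Clip3* and *Clip4*, the CLIP-associating protein genes *Clasp1* and *Clasp2*, and the end-binding protein genes *Mapre1*, *Mapre2* and *Mapre3*. They are 9 of the 39179 genes in the differentiation table, and in the sorted files they account for 102 of the 115556 transcripts that could be matched to a gene. *Clip4* fell below the filter on low values in both experiments, so 8 members were tested in each, along with 25 of the 102 transcripts.

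Ocy454 cells carry a thermosensitive large T antigen in every library. They divide at 33 °C and differentiate at 37 °C, where the antigen is inactivated. The differentiation experiment has 8 libraries, 2 at each of days 1, 7, 10 and 14 at 37 °C. The sorting experiment has 6 libraries made after 17 days at 37 °C, 3 from the 10% of live cells with the brightest CD61-PE label (CD61 high) and 3 from the dimmest 10% (CD61 low). CD61 is integrin beta-3, which the study used as a surface marker of osteocyte maturity, and no gene was knocked down in any of these libraries. The study calls the differentiation replicates biologic. The sorted replicates come from 3 independent groups of cells, per the study's methods, and no source used here says whether replicates of the same number in the CD61 low and CD61 high groups came from the same group of cells.

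Reads per library were 27518605 to 34311238 in the differentiation experiment and 18815602 to 19220064, as estimated by Salmon, in the sorting experiment. The labels were checked with *Itgb3*, the gene of the sorted protein, which had 5.31, 5.54 and 6.10 CPM among CD61 low cells and 130.1, 100.1 and 103.6 CPM among CD61 high cells. Of 8 osteocyte genes examined, *Dmp1*, *Phex*, *Sost*, *Irx5*, *Pdpn* and *Dkk1* reached 57.6, 96.5, 18.0, 182.0, 28.4 and 1.69 CPM in the differentiation libraries, while *Mepe* and *Fgf23* stayed at or below 0.472 CPM in all 14 libraries. Of the 6 tested, 5 were higher and 1 lower at day 14 against day 1, and 4 were higher and 1 lower in CD61 high against CD61 low cells. Defining genes of other cell types were at or near 0. *Ptprc* of leukocytes reached 0.0627 CPM at most, and *C1qa* of macrophages, *Snap25* of neurons and *Myog* of muscle had no read. The macrophage-associated *Cd68* did reach 15.3 CPM, the neuronal genes *Tubb3* and *Eno2* reached 90.0 and 36.2 CPM, and the muscle gene *Des* reached 5.18 CPM.

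Microtubules grow and shrink mostly at the plus end, and a set of proteins rides on that end while it grows. End-binding proteins (EB1, EB2 and EB3, the products of the *Mapre* genes) recognise the growing end directly and recruit most of the others. CLIP proteins reach the end through CAP-Gly domains, which bind the carboxy-terminal tails of tubulin and of EB proteins, and the *Clip1* product helps to load the dynein and dynactin transport machinery there. CLASP proteins bind both CLIPs and EB proteins and keep microtubules from shrinking, above all near the cell edge. In osteocytes, microtubules fill the cell body and extend into the dendrites by which these cells touch one another.

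The study targeted *Clip2* with 4 short hairpin RNAs and designed quantitative PCR primers for *Clip2* and *Clip1*. These sequences are shown because they fix which *Clip2* transcripts the hairpins and primers can read. The hairpin target sequences, written 5′ to 3′ in the sense of the transcript, are:
Clip2 hairpin 1: tccacaaggtcatccgaattg
Clip2 hairpin 2: accttgctccaggacaaatat
Clip2 hairpin 3: caaagctgaatggcggataaa
Clip2 hairpin 4: ttgggcctctcttgactatag
Each of these 21-base sites was found in Clip2-201 and Clip2-202, 2 of the 3 *Clip2* transcripts of the files, and in no other gene of the annotation. Along the 16 exons of Clip2-201, hairpin 1 lies in exon 5 (chr5:134545822-134545842 of GRCm39), hairpin 2 in exon 9 (chr5:134532100-134532120) and hairpin 3 in exon 13 (chr5:134523118-134523138), all in coding sequence. Hairpin 4 lies in exon 16, in the 3′ UTR (chr5:134519319-134519339). The gene is on the minus strand.

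The primers, each written 5′ to 3′ as designed, are:
Clip2 forward primer: gctggtggaaaacgtgagga
Clip2 reverse primer: ctgggtctgggtctccaagt
Clip1 forward primer: gagcccaggagagtcagattg
Clip1 reverse primer: tgttcaggtcttccccgttg
The *Clip2* forward primer matched exon 7 of Clip2-201 (chr5:134542893-134542912). The site of the *Clip2* reverse primer was found in a single *Clip2* transcript of the files, Clip2-202, where it spans exons 8 and 9 of 17. That exon 9 (chr5:134533588-134533692, 105 bases) is not part of Clip2-201, in which the longest exact run of the primer was 10 bases. The primer pair therefore encloses 136 bases of Clip2-202 and has no exact product in Clip2-201. The *Clip1* primers were found together in 7 *Clip1* transcripts of the files and enclose 132 bases, with the forward primer across exons 22 and 23 of the 24 exons of Clip1-204.

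At day 1 all members except *Clip4* were well above the detection limit. Per kilobase of the gene length listed in the deposited table, *Mapre1* stood highest with 28.6 ± 0.226 CPM (SD, n = 2), followed by *Clasp1* with 19.1 ± 0.134, *Clip2* with 16.3 ± 0.191, *Clip3* with 13.5 ± 0.658 and *Clip1* with 11.4 ± 0.361 CPM per kilobase. *Clasp2* with 10.6 ± 0.304, *Mapre3* with 7.40 ± 0.612 and *Mapre2* with 5.11 ± 0.0219 CPM per kilobase came next, and no pair of neighbours in this order overlapped. By day 14 *Mapre3* had moved from the seventh to the second place, with 12.5 ± 0.962 CPM per kilobase against 26.0 ± 0.481 for *Mapre1*. *Clasp1*, *Clip2* and *Clip3* followed with 11.1 ± 0.361, 10.8 ± 0.446 and 10.1 ± 0.390 CPM per kilobase. The libraries of *Clasp1* and *Clip2* overlapped, those of *Clip2* and *Clip3* did not, and further down *Clasp2* with 7.30 ± 0.741 overlapped *Clip1* with 7.07 ± 0.149, above *Mapre2* with 3.73 ± 0.156 CPM per kilobase.

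*Clip4* (chromosome 17, 72075468 to 72173468, GRCm39) is a little-studied CAP-Gly protein gene. It had 14 and 7 reads on day 1, 2 and 3 on day 7, 1 and 0 on day 10, and 2 and 5 on day 14. In CPM, its day 1 libraries had 0.413 and 0.220, and the limit that 3 reads set was 0.0874 to 0.109 CPM, which covers counting error only. In the sorted files its summed reads were 0, 2 and 5 in the CD61 low libraries and 0 in each CD61 high library, where 3 reads correspond to 0.156 to 0.157 CPM. No fold change is given for *Clip4*, since most of its values lie at or near that limit.

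**Figure D1:**
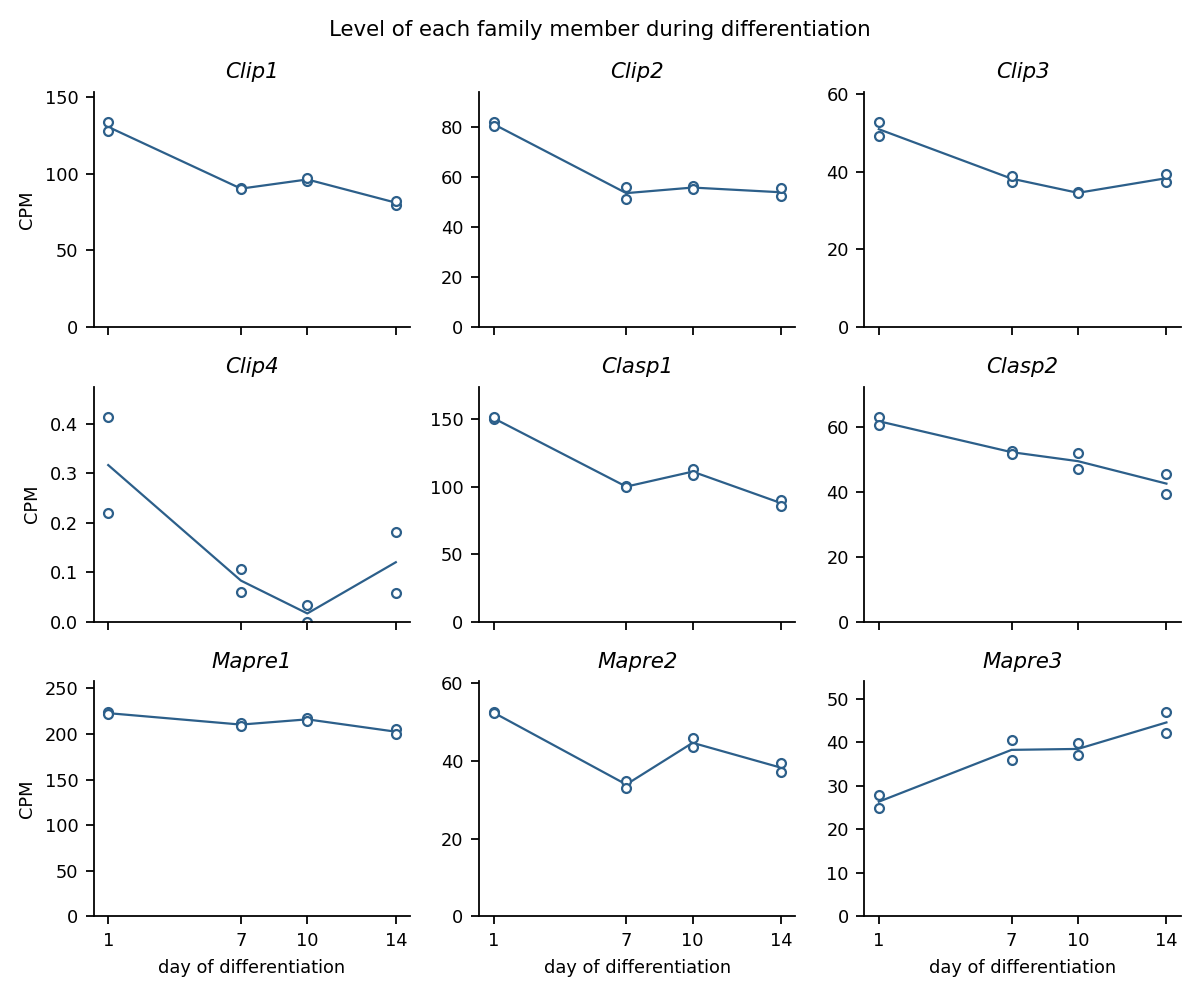
Level of each of the 9 members in CPM (vertical axes, linear, each starting at 0 with its own range) against the day of differentiation, with an open circle for each of the 2 libraries a day and a line through their means. Each gene except *Mapre3* has its own highest values at day 1, *Mapre3* has its own lowest there, and *Clip4* stays under 0.5 CPM.

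Differentiation was tested on log2(CPM + 1) with limma, over 12725 genes and all 8 libraries, and a gene was called at an adjusted p below 0.01. Between day 1 and day 14, 7 of the 8 members tested fell and 1, *Mapre3*, rose. Among all genes tested 36% were called lower and 32.6% higher in this comparison. The median Log2FC of the 8 members was -0.49, against -0.03 over all genes tested. None passed a Log2FC of 1 in either direction, and the largest change was that of *Clasp1*, -0.77. In bulk libraries, less RNA per cell and fewer cells that hold it cannot be told apart.

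*Clip1* encodes the founding CLIP, which links growing ends to dynein and dynactin. It had 127.6 and 133.5 CPM on day 1, 90.6 and 89.9 on day 7, 95.5 and 96.9 on day 10, and 79.9 and 82.3 on day 14. The day 1 libraries lie above all the others, and the day 14 libraries lie below all the others. Its Log2FC was -0.53 at day 7 (SE 0.04, adjusted p = 2.3e-11, limma), -0.44 at day 10 (adjusted p = 7.4e-10) and -0.68 at day 14 (adjusted p = 7.7e-14), each against day 1.

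*Clip2* (chromosome 5, 134518237 to 134581298, minus strand, GRCm39) encodes the closest relative of the *Clip1* product, which lacks the tail that recruits dynactin. Its libraries had 81.7 and 80.3 CPM on day 1, 50.9 and 55.9 on day 7, 56.2 and 55.1 on day 10, and 52.2 and 55.3 on day 14. Day 1 stood alone above the other days, and at day 7 the Log2FC was -0.59 against day 1 (SE 0.05, adjusted p = 1.4e-10, limma). At day 10 it was -0.53 (adjusted p = 8.3e-10) and at day 14 -0.58 (adjusted p = 1.2e-10). Later values overlapped: day 10 against day 7 gave 0.06 (95% interval -0.05 to 0.17) and day 14 against day 10 gave -0.05 (95% interval -0.16 to 0.06). Relative to *Clip1* and per kilobase, *Clip2* stood at 143% ± 6.15 on day 1 and 153% ± 3.11 on day 14, with lower means of 136% ± 9.83 on day 7 and 133% ± 3.18 on day 10 (SD, n = 2).

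*Clip3* encodes a CLIP-related protein found at the Golgi and at membranes rather than at plus ends. It had 49.3 and 52.8 CPM on day 1, 37.5 and 39.0 on day 7, 34.7 and 34.5 on day 10, and 37.3 and 39.4 on day 14. Day 1 was highest and day 10 lowest, with no overlap between day 10 and its neighbours. Against day 1 the Log2FC was -0.41 at day 7 (adjusted p = 6.9e-07, limma), -0.55 at day 10 (adjusted p = 3.2e-09) and -0.40 at day 14 (adjusted p = 5.6e-07).

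*Clasp1* had 150.0 and 151.5 CPM on day 1, 100.5 and 99.5 on day 7, 113.3 and 109.0 on day 10, and 89.8 and 85.8 on day 14. The 4 days do not overlap, and the order from high to low is day 1, day 10, day 7, day 14. Its Log2FC against day 1 was -0.59 at day 7 (SE 0.04, adjusted p = 1.8e-12, limma), -0.44 at day 10 (adjusted p = 5.1e-10) and -0.77 at day 14 (adjusted p = 3.4e-15). *Clasp2*, its paralog, had 62.9 and 60.4 CPM on day 1, 52.6 and 51.7 on day 7, 51.8 and 46.9 on day 10, and 45.5 and 39.4 on day 14. It fell by 0.53 on the log2 scale from day 1 to day 14 (SE 0.06, adjusted p = 1.5e-08, limma). At day 7 its Log2FC of -0.24 passed with an adjusted p of 0.0013, which became 0.020 without day 1 replicate 1, 0.016 without day 7 replicate 2 and 0.036 with no filter on low values.

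The end-binding genes did not move together. *Mapre1*, the gene of EB1, had 224.2 and 221.6 CPM on day 1, 212.2 and 208.5 on day 7, 217.4 and 214.8 on day 10, and 205.2 and 199.9 on day 14. Its day 14 libraries lie lowest, but the Log2FC against day 1 was only -0.14 (SE 0.04, adjusted p = 0.0013, limma). Without day 1 replicate 1 the adjusted p was 0.020, and with TMM scaling of the CPM it was 0.013. *Mapre2*, the gene of EB2 (chromosome 18, 23885390 to 24026918, GRCm39), had 52.6 and 52.3 CPM on day 1, 34.8 and 33.1 on day 7, 43.5 and 45.8 on day 10, and 39.4 and 37.1 on day 14. Its lowest point was day 7, and the 4 days do not overlap. Against day 1 its Log2FC was -0.61 at day 7 (adjusted p = 3.3e-10, limma), -0.23 at day 10 (adjusted p = 7.6e-04) and -0.45 at day 14 (adjusted p = 7.3e-08). Without day 10 replicate 1, the day 10 value was -0.19 with an adjusted p of 0.018.

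*Mapre3*, the gene of EB3, which is best known from neurons and muscle, is the member that rose. It had 27.9 and 24.8 CPM on day 1, 40.5 and 36.1 on day 7, 37.2 and 39.8 on day 10, and 42.2 and 47.0 on day 14. Both day 1 libraries lie below the other 6. The Log2FC against day 1 was 0.52 at day 7 (SE 0.07, adjusted p = 3.0e-07, limma), 0.53 at day 10 (adjusted p = 1.8e-07) and 0.74 at day 14 (adjusted p = 4.1e-10). Per kilobase, *Mapre3* stood at 25.9% ± 1.94 of *Mapre1* at day 1 and at 48.2% ± 4.60 at day 14 (SD, n = 2), whereas *Mapre2* went from 17.9% to 14.4% of *Mapre1*. The summed level of 6 neuronal genes was 43.4 to 45.9 CPM on day 1, highest on day 7 with 100.4 to 104.9, then 71.5 to 74.5 on day 10 and 67.5 to 68.2 CPM on day 14, nearly all of it *Tubb3* and *Eno2*, with *Snap25* and *Nefl* at 0 reads. That of 6 muscle genes, mostly *Des*, was 0.533 to 1.03 CPM on day 1, 2.13 to 2.43 on day 7, 1.26 to 1.77 on day 10 and 2.65 to 4.47 CPM on day 14. The part of these genes in the values of *Mapre3* was not tested.

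Most calls against day 1 were already present at day 7. There, 6 of the 8 members were called lower and *Mapre3* higher, where 32% of all genes tested were lower and 24.5% higher. At day 10 against day 1, 6 were again lower and *Mapre3* higher, beside 30.3% and 33.1% of all genes. In both of these comparisons *Mapre1* was the member that missed the threshold, with a Log2FC of -0.08 at day 7 (adjusted p = 0.044, limma) and -0.04 at day 10 (adjusted p = 0.27). The summed level of 20 mitotic genes was 3017 to 3055 CPM at day 1, 2763 to 2791 at day 7, 2406 to 2454 at day 10 and 2932 to 3030 at day 14. At day 14 against day 1, 6 of these 20 genes were higher and 9 lower, with a median Log2FC of -0.09, among them *Plk1* with -1.02, *Kif20a* with -0.47, *Cenpf* with 0.38 and *Prc1* with 0.33. Their part in the family's values was not tested.

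From day 7 to day 10, *Mapre2* rose with a Log2FC of 0.39 (adjusted p = 1.7e-06, limma) and *Clasp1* with 0.15 (adjusted p = 0.0028). These were 2 of 8 members higher and 0 lower, beside 29.8% and 18.9% of all genes. For *Clasp1* the call did not hold with TMM scaling (Log2FC 0.08, adjusted p = 0.089), with no filter on low values (adjusted p = 0.010) or without day 7 replicate 1 (adjusted p = 0.015), day 7 replicate 2 (0.026) or day 10 replicate 1 (0.046). *Clip3*, with -0.14 and an adjusted p of 0.035, passed with TMM scaling (-0.21, adjusted p = 0.0024). From day 10 to day 14, *Clip1* (Log2FC -0.24, adjusted p = 1.6e-05), *Clasp1* (-0.34, 9.6e-08), *Clasp2* (-0.21, 0.0035) and *Mapre2* (-0.22, 0.0014) were lower and none was higher by limma. This is 4 of 8 members lower, beside 30% lower and 22.9% higher of all genes. Of these, *Clasp2* and *Mapre2* did not pass with TMM scaling (adjusted p = 0.032 and 0.017) or without day 14 replicate 2 (0.13 and 0.021). *Clasp2* also missed the threshold with no filter on low values (0.056) and without day 10 replicate 1 (0.089), and *Mapre2* without day 10 replicate 2 (0.029). *Clip3* and *Mapre3*, with Log2FC values of 0.15 and 0.21 over the same interval, had adjusted p-values of 0.029 and 0.012. With TMM scaling both passed, with 0.20 and 0.26 (adjusted p = 0.0027 and 0.0024). For *Mapre3* so did the fits without day 14 replicate 1 (0.28, adjusted p = 0.0054) and without day 1 replicate 1 or 2 (adjusted p = 0.0087 and 0.0098).

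**Figure D2:**
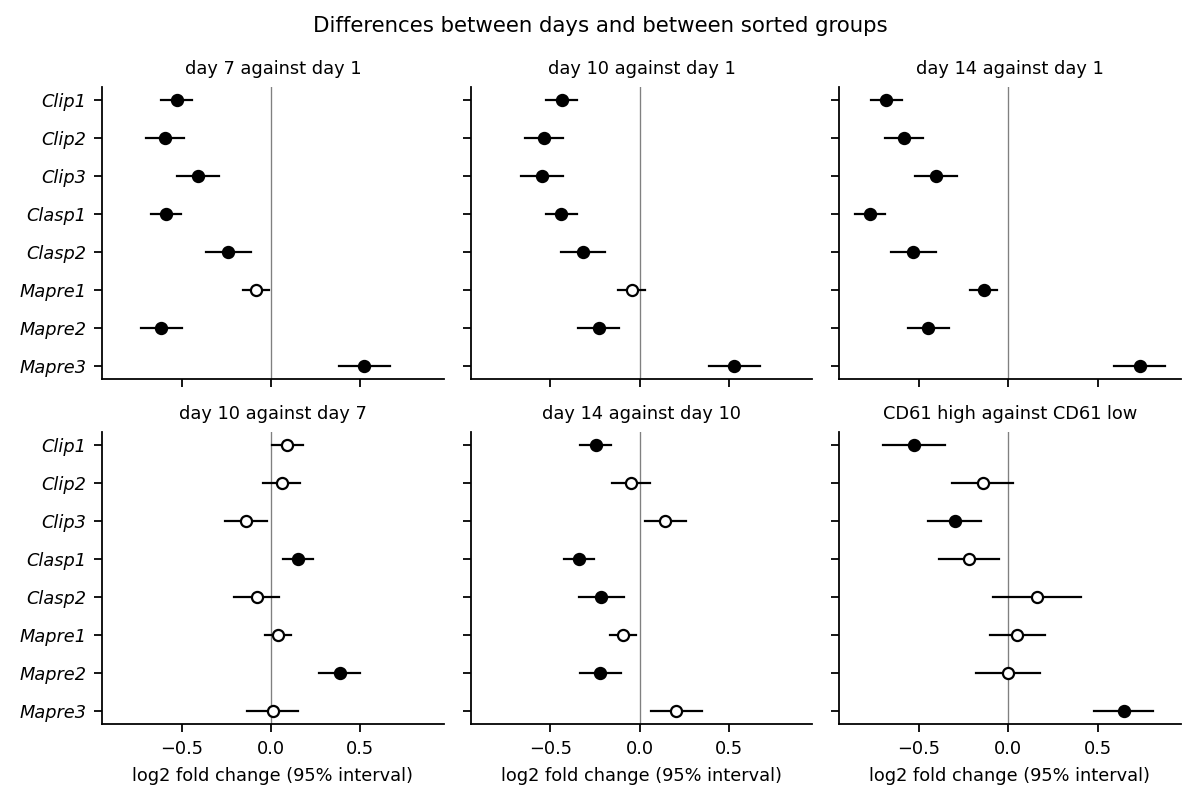
Log2 fold change (horizontal axis, shared by all panels) of the 8 tested members in the 5 comparisons of days and in the comparison of CD61 high with CD61 low cells, with lines for the 95% interval and filled circles for an adjusted p below 0.01. Against day 1, *Mapre3* lies to the right of 0 and the other members to the left in all 3 panels, and between sorted groups the filled circles are *Clip1*, *Clip3* and *Mapre3*.

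Sorted cells were compared to ask which members follow the amount of CD61 on the cell surface. Reads were summed over each gene's transcripts and tested with the quasi-likelihood test of edgeR over 12077 genes, and CPM values below are scaled with TMM factors. *Mapre3* rose in CD61 high cells, and *Clip1* and *Clip3* fell. This is 1 of 8 members higher and 2 lower, where 19.4% of all genes tested were higher and 16% lower. The median Log2FC was -0.07 for the members and 0.00 for all genes.

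*Mapre3* had 53.1, 48.5 and 49.6 CPM among CD61 low cells and 75.3, 78.2 and 83.0 among CD61 high cells. The groups are far apart, and the Log2FC was 0.65 (SE 0.07, adjusted p = 5.7e-05, edgeR). The call held in each of the 14 alternatives run, with a Log2FC from 0.35 to 0.76. Per transcript length (TPM), *Mapre3* stood at 98.4% ± 6.71 of *Mapre1* in CD61 low cells and at 201% ± 48.6 in CD61 high cells (SD, n = 3), and the range of 148% to 243% in CD61 high cells lies above that of CD61 low cells, 92.7% to 106%. The denominator moved too on this scale, since *Mapre1* had 64.8 ± 1.52 TPM in CD61 low cells and 63.1, 32.3 and 43.9 TPM in the CD61 high libraries, whereas its CPM overlapped between the groups. TPM and the CPM per kilobase of the differentiation experiment use different gene lengths, so levels are not compared between the experiments.

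*Clip1* had 76.7, 75.3 and 79.7 CPM in CD61 low cells and 57.3, 49.5 and 54.1 in CD61 high cells, with no overlap. Its Log2FC was -0.53 (SE 0.08, adjusted p = 2.8e-04, edgeR). *Clip3* had 130.4, 128.8 and 132.2 CPM in CD61 low cells and 103.7, 111.7 and 102.6 in CD61 high cells, again with no overlap, and a Log2FC of -0.30 (SE 0.07, adjusted p = 0.0040). With an offset for the average length of each gene's transcripts, both missed the threshold (*Clip1* -0.48, adjusted p = 0.023; *Clip3* -0.22, adjusted p = 0.065). *Clip3* also missed it without CD61 low replicate 1 (adjusted p = 0.012) or 2 (0.015) and without CD61 high replicate 1 (0.013) or 3 (0.026).

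*Clip2* was not called between the sorted groups. Its libraries had 64.3, 56.9 and 59.4 CPM in CD61 low cells and 53.0, 57.1 and 53.5 in CD61 high cells, so that 1 library of each group lies inside the other's range. The Log2FC was -0.14 with a 95% interval of -0.31 to 0.03 (adjusted p = 0.15, edgeR). Under TMM scaling the interval leaves room for a fall of up to 0.31 on the log2 scale and for a rise of at most 0.03. These limits depend on the scaling, since library size alone gave -0.44 (adjusted p = 5.6e-04, edgeR), outside that interval.

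*Clasp1* had 120.3, 123.0 and 132.0 CPM in CD61 low cells and 113.5, 99.7 and 109.2 in CD61 high cells. These groups do not overlap, but with a Log2FC of -0.22 (95% interval -0.39 to -0.05) the adjusted p was 0.033 by edgeR. *Clasp2* had 36.3, 39.4 and 46.4 CPM against 50.6, 40.6 and 45.5, and *Mapre1* had 119.5, 125.6 and 125.6 against 132.3, 120.9 and 131.1, with overlapping groups in both. Their Log2FC was 0.16 (95% interval -0.08 to 0.41) and 0.05 (95% interval -0.10 to 0.20). *Mapre2* had 41.8, 47.3 and 47.1 CPM in CD61 low and 43.9, 47.3 and 44.9 in CD61 high cells. Its Log2FC of -0.00 has a 95% interval of -0.18 to 0.18.

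**Figure D3:**
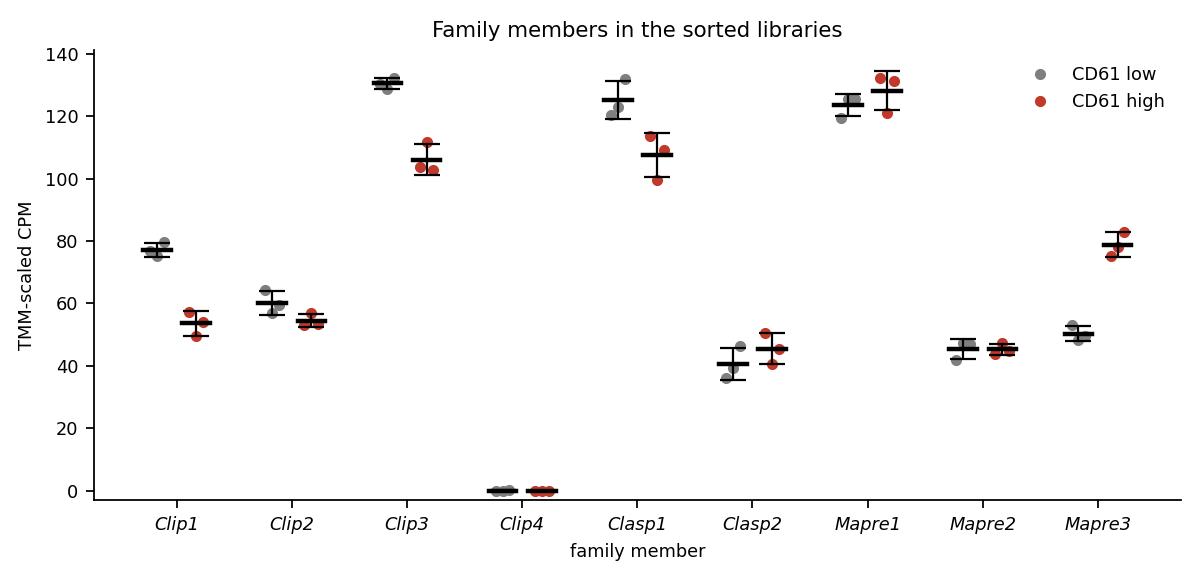
TMM-scaled CPM (vertical axis, linear) of the 9 members in the 3 CD61 low (gray) and 3 CD61 high (red) libraries, with a thick bar at the mean and whiskers of 1 SD. *Mapre3* is higher in all CD61 high libraries and *Clip1* and *Clip3* are lower in them, while the points of *Clip2*, *Clasp2*, *Mapre1* and *Mapre2* overlap between the groups.

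The sorted groups also differed in other respects, whose part in the family's values was not tested. TMM factors were 0.895 to 0.909 in CD61 high and 1.10 to 1.13 in CD61 low libraries. With library size alone the median gene moved to a Log2FC of -0.29, and of 12045 genes tested 4807 were lower and 1122 higher. On that scale 6 of 8 members were called lower, and *Mapre3* was still higher. Beyond *Clip1* and *Clip3*, these were *Clip2* (-0.44, adjusted p = 5.6e-04, edgeR), *Clasp1* (-0.52, adjusted p = 1.3e-04), *Mapre2* (-0.30, adjusted p = 0.0088) and *Mapre1* (-0.25, adjusted p = 0.0088). The 9 osteoblast genes examined were all called higher in CD61 high cells, and their summed level, mostly type I collagen, was 77490 to 83620 CPM there and 27750 to 33910 CPM in CD61 low cells. Of 20 mitotic genes 17 were called higher and 0 lower, with a median Log2FC of 0.54 and a summed level of 2730 to 3074 CPM against 1803 to 2213 CPM. With library size alone 4 of the 20 were higher (median 0.24), and with the length offset 12 were. The summed neuronal genes had 52.9 to 63.3 CPM in CD61 high and 41.1 to 42.3 CPM in CD61 low cells, and 8 macrophage genes, mostly *Cd68*, had 8.18 to 8.86 and 12.9 to 15.9 CPM.

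Transcripts were next taken one by one, to see whether a gene's sum hides a switch between its products. Salmon divides reads among overlapping transcripts by an estimate, and the uncertainty of that division is not part of the values. Of the 25 family transcripts tested with edgeR, 0 passed an adjusted p of 0.01, with 3 higher and 2 lower at an unadjusted p below 0.05. Over all transcripts, edgeR called 7.13% in either direction. DESeq2 called 2 of the 25 higher and 2 lower, beside 15% of all transcripts in either direction. In the test of transcript usage, which asks whether a transcript changed unlike the rest of its gene, 0 of 24 family transcripts passed and 0 had an unadjusted p below 0.05, beside 0.0865% of all transcripts called in either direction. These 24 transcripts belong to 7 genes. *Clip2*, with 1 transcript above the filter, and *Clip4*, with none, could not be tested for usage.

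*Clip2* came almost wholly from Clip2-201, with 97.1% ± 4.05 of the gene's reads in CD61 low and 99.5% ± 0.867 in CD61 high cells (SD, n = 3). Clip2-201 spans 4893 bases in the files and encodes 1012 codons. It had 64.3, 56.2 and 54.9 CPM in CD61 low and 52.3, 57.1 and 53.5 in CD61 high libraries, which overlap (Log2FC -0.11, adjusted p = 0.51, edgeR). Clip2-202, the transcript that holds the site of the *Clip2* reverse primer shown above, was assigned 0%, 1.18% and 7.53% of the gene's reads in the CD61 low libraries and 1.50%, 0% and 0% in the CD61 high libraries. It was too low for the test, and 3 of its 6 values were 0.

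*Clip1* was spread over more transcripts. Clip1-204, a coding transcript, held 34.4%, 44.0% and 66.6% of the gene's reads in CD61 low and 66.8%, 39.1% and 48.5% in CD61 high libraries, so that the spread within each group was far larger than the difference between them. Clip1-206, an untranslated transcript with a retained intron, held 7.15% to 27.5% and 11.4% to 34.4%, and the coding Clip1-201 held 6.43% to 17.9% and 8.35% to 18.2%. Chosen after its values were seen, the incomplete coding transcript Clip1-213 had 5.51, 4.47 and 5.51 CPM in CD61 low and 1.57, 2.44 and 0.772 CPM in CD61 high libraries, with no overlap (Log2FC -1.69, adjusted p = 0.032, edgeR). For *Clip3*, Clip3-201 held 82.5% to 82.7% of reads in CD61 high and 82.8% to 86.2% in CD61 low cells, and its Log2FC was -0.33 (adjusted p = 0.023, edgeR). The short Clip3-204, which retains an intron, held 10.0% ± 0.753 and 9.47% ± 1.79 (SD, n = 3).

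*Clasp1* was divided mainly between the full-length coding Clasp1-202, with 44.2% ± 10.8 of reads in CD61 low and 39.8% ± 9.75 in CD61 high cells, and Clasp1-225, which is annotated as a target of nonsense-mediated decay, with 40.4% ± 13.0 and 48.0% ± 12.7 (SD, n = 3). In the libraries the share of Clasp1-225 ran from 25.9% to 61.5% and that of Clasp1-202 from 28.5% to 54.8%. *Clasp2* came from Clasp2-201 (63.2% ± 8.15 in CD61 low and 64.1% ± 8.60 in CD61 high cells), Clasp2-203 (20.8% ± 4.44 and 21.0% ± 5.24) and the shorter Clasp2-204 (15.8% ± 3.86 and 14.4% ± 3.14). The means of all 3 differ by less than 1 SD between the groups.

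*Mapre1* was almost all Mapre1-201, with 96.0% ± 0.711 in CD61 low and 97.2% ± 1.69 in CD61 high cells. *Mapre2* was divided about evenly between Mapre2-201 (49.2% ± 2.29 and 49.2% ± 5.88) and Mapre2-202 (50.6% ± 2.49 and 49.9% ± 5.47), 2 coding transcripts that begin at different starts and differ in codon number, 326 against 317. *Mapre3* came from the coding Mapre3-201 (57.9% ± 12.1 in CD61 low and 53.8% ± 0.911 in CD61 high cells) and Mapre3-202 (20.5% ± 9.12 and 18.6% ± 2.95), with 281 and 266 codons. Mapre3-203, which retains an intron, held 14.4% ± 3.06 and 17.4% ± 0.735 (SD, n = 3).

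The rise of *Mapre3* was not limited to one transcript in point estimate. Mapre3-201 had 38.0, 23.5 and 26.6 CPM in CD61 low and 40.7, 42.7 and 43.8 in CD61 high libraries (Log2FC 0.53, adjusted p = 0.092, edgeR), and Mapre3-202 gave the same Log2FC of 0.53 with an adjusted p of 0.33. Mapre3-203 had 5.84, 8.19 and 7.62 CPM against 13.8, 13.2 and 14.2, a Log2FC of 0.93 (SE 0.20, adjusted p = 0.018, edgeR). Mapre3-204, a short transcript with a retained intron that was chosen after its values were seen, had a Log2FC of 1.17 (adjusted p = 0.034). All 4 point estimates are above 0, and none passed 0.01 alone with edgeR.

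**Figure D4:**
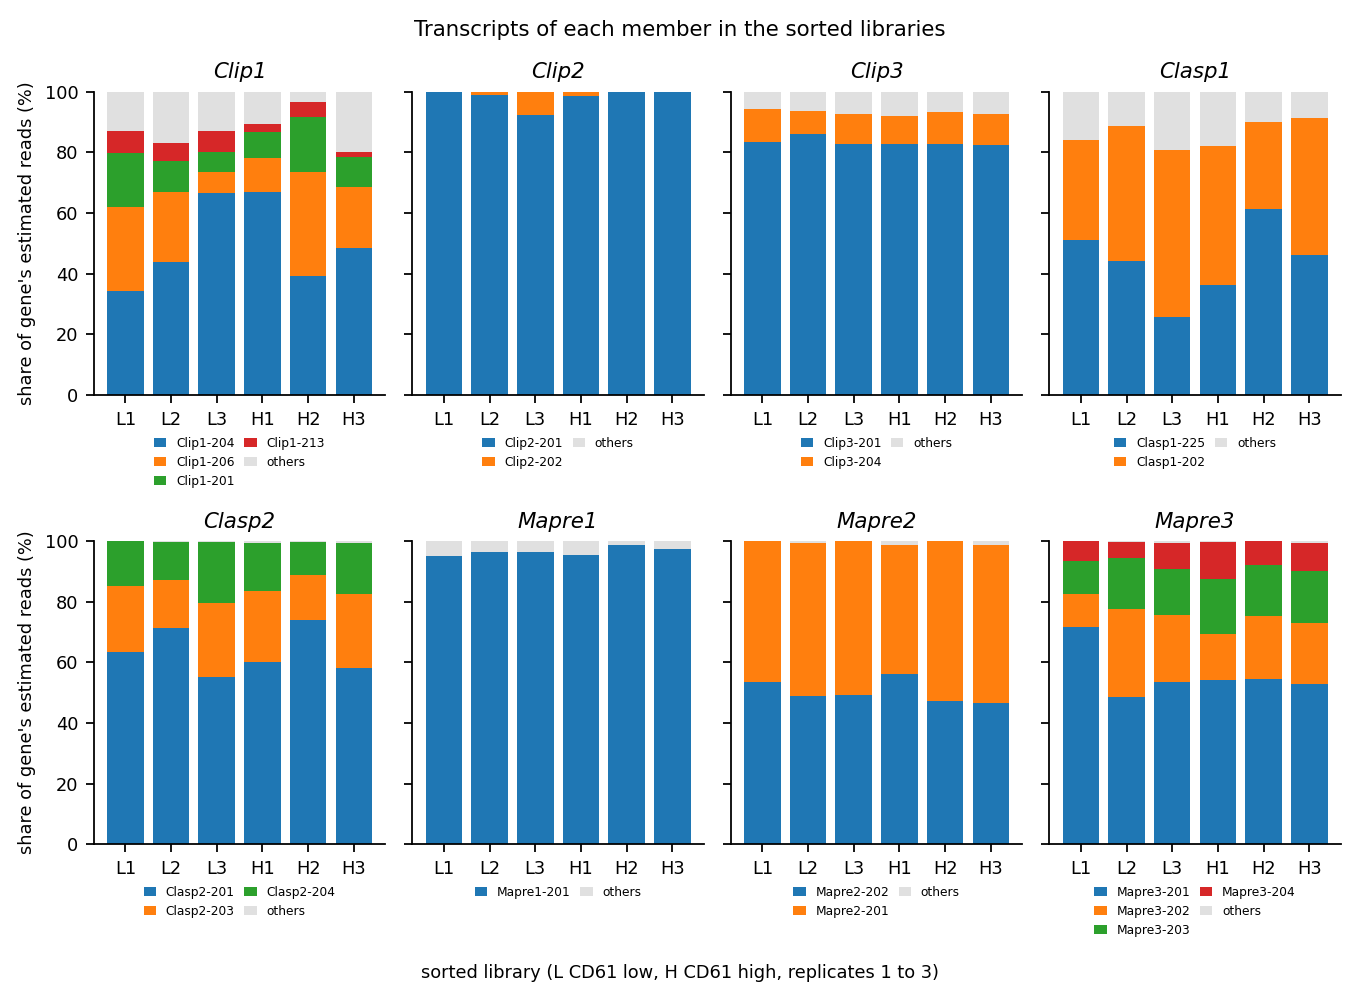
Share of each gene's estimated reads held by its transcripts (stacked bars, percent of the gene, 0 to 100) in the CD61 low libraries L1 to L3 and the CD61 high libraries H1 to H3, with the remaining transcripts in gray. Clip2-201 and Mapre1-201 fill nearly the whole bar in all 6 libraries, whereas the shares within *Clip1* and *Clasp1* vary more between libraries of 1 group than between the groups.

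The sequence before the annotated start of *Clip2* is given for reference. It is taken from RefSeq on GRCm38.p6 (chr5:134552485-134552684, minus strand), runs from 250 to 51 bases before the start, and is written 5′ to 3′ in the sense of the gene with motif letters in capitals:
Clip2 upstream: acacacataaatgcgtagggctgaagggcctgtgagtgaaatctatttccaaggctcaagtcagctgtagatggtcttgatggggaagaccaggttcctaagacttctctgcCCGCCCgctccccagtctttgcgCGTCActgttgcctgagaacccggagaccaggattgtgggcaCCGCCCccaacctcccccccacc
The capitals mark 2 matches on the opposite strand to GGGCGG, the GC box, and 1 to TGACG, the core of a cAMP response element. Both strands were searched, and GGGCGG occurs in 24.6% and TGACG in 12.7% of 32851 RefSeq windows of the same length. The letters CCAAT occur in 28.4% of windows, those of the TATA box, TATAAA, in 9.14% and those of an E box, CACGTG, in 4.34%, and none of them is in this window. The window is 57.5% G and C, against a median of 51.5%. The window of *Clip1* has 2 GC boxes and is 66.5% G and C, and that of *Mapre1* has 1 match each to the GC box, CCAAT, the cAMP response element core and the E box. Of the 3 *Clasp2* windows, 1 has a CCAAT match and 1 has 4 matches to the TATA box. The windows of *Clip3*, *Clip4* and *Mapre3* hold none of the 5 motifs. A window was used for 7 of the 9 members, and none for *Clasp1* and *Mapre2*.

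Other genes of the plus-end machinery were examined as lists, on the same tests. Their counts at day 14 against day 1 stand beside 32.6% of all genes higher and 36% lower with a median Log2FC of -0.03, and those of the sort beside 19.4% higher and 16% lower with a median of 0.00, and a share near these is not particular to a list. Of 26 tested genes for further plus-end proteins, such as XMAP215-like polymerases, TACC proteins, navigators and spectraplakins, 11 were higher and 6 lower at day 14 against day 1, with a median Log2FC of 0.08 against -0.03 for all genes. The 4 largest changes were falls: *Nav3*, a neuron navigator, with -1.55 (26.5 ± 1.94 to 8.36 ± 0.361 CPM), *Tacc2* with -0.93, the spectraplakin *Dst* with -0.82 and *Ccser2* with -0.71. In the sorted cells 7 of 26 were higher and 0 lower, with a median of 0.23 against 0.00. With library size alone this list had 4 higher and 7 lower, where 1122 of 12045 genes were higher and 4807 lower. Those shares also stand beside each list count with library size alone given below. With the length offset this list had 4 higher and 1 lower, beside 1696 and 1419 of 12077 genes. The leading genes were *Kif11*, a spindle motor, with 1.06 (105 ± 15.9 CPM in CD61 low and 219 ± 14.3 in CD61 high cells, SD, n = 3), the spindle protein *Tacc3* with 0.66, the mitotic kinesin *Kif18b* with 0.59 and the dynactin subunit *Dctn1* with 0.55. *Kif11*, *Tacc3* and *Kif18b* act in mitosis, and the mitotic list was higher in the same cells, as given above.

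Cortical partners, which capture plus ends at the cell edge beside adhesions, included large changes in both directions. At day 14, 6 of 11 were higher and 3 lower than at day 1, with a median Log2FC of 0.35, beside 32.6% and 36% of all genes. *Kank1*, which couples adhesions to the cortical complex, rose from 31.3 ± 1.32 to 183.5 ± 2.46 CPM (Log2FC 2.52, adjusted p = 1.4e-25, limma), and *Phldb2*, the gene of the CLASP-anchoring protein LL5beta, fell from 194.0 ± 6.32 to 52.3 ± 0.215 CPM (-1.87, adjusted p = 5.1e-23). *Tln1*, talin, had -0.94 and *Kif21a*, a kinesin of the same complex, 0.73. The same pair of genes led the sorted comparison, where 4 of 11 were higher and 1 lower with a median of 0.28, beside 19.4% and 16% of all genes. *Kank1* had 42.5 ± 5.59 CPM in CD61 low and 114.9 ± 12.8 in CD61 high cells (Log2FC 1.43, adjusted p = 3.8e-06, edgeR), and *Phldb2* had 69.7 ± 4.13 and 30.7 ± 4.23 (-1.18, adjusted p = 8.4e-06). *Ppfibp1* and *Phldb1* were higher with 0.63 and 0.45. With library size alone the list had 2 higher and 3 lower.

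The other genes with CAP-Gly domains were divided, beside 32.6% higher and 36% lower of all genes at day 14 and 19.4% and 16% in the sort. Of 6, 3 were higher and 2 lower at day 14 (median Log2FC 0.10), while the sort gave 2 higher and 2 lower (median -0.12). The kinesin gene *Kif13b* rose in both comparisons (Log2FC 1.22 and 0.59), as did *Dctn1* (0.23 and 0.55), while the tubulin folding cofactors *Tbcb* (-0.89 and -0.73) and *Tbce* (-0.52 and -0.92) fell in both. Among the enzymes that cut or restore the tyrosine on which CAP-Gly binding to tubulin depends, or trim the glutamate chains beside it, 1 of 5 was higher and 2 were lower at day 14, with a median of -0.35. *Vash2*, a tubulin carboxypeptidase, fell from 99.1 ± 1.79 to 23.2 ± 0.242 CPM (Log2FC -2.05), the tyrosine ligase *Ttl* fell (-0.64) and the deglutamylase *Agbl5* rose (1.05). In CD61 high cells 1 of 7 was higher and 2 were lower with a median of -0.18, *Vash2* with -0.89, *Matcap1* with -0.81 and *Agbl5* with 0.33. Scaled by library size alone, 1 of the 6 CAP-Gly genes was higher and 3 lower, and 0 of the 7 enzymes were higher and 3 lower.

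Dynein and dynactin genes, the cargo machinery that the *Clip1* product recruits, had 3 of 14 higher and 5 lower at day 14, with a median of -0.04, where 32.6% of all genes were higher and 36% lower. The dynein heavy chain *Dync1h1* had -1.08 and the dynactin filament gene *Actr1a* had -0.45, whereas *Dctn3* had 0.29. In the sorted cells 3 were higher and 2 lower with a median of 0.06, where 19.4% and 16% of all genes were, among them *Dctn1*, *Dctn5* (0.39), *Dctn4* (-0.38) and *Dync1li2* (-0.37). With library size alone 1 was higher and 7 lower. Genes of microtubule-associated proteins that bind along the lattice were mostly lower at day 14, 6 of 9 with 0 higher and a median of -0.61, beside 36% of all genes lower and a median of -0.03. *Dclk1* fell from 244.8 ± 4.12 to 76.6 ± 0.883 CPM (Log2FC -1.66), and *Map6* (-1.18), *Map1a* (-1.11) and *Map4* (-0.71) fell too. In the sorted cells 2 of 8 were higher and 3 lower (median -0.07), with *Map6* at -1.83, *Dclk1* at -1.01, *Map1b* at -0.72 and *Map7d1* at 0.69, and 1 was higher and 5 lower with library size alone.

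**Figure D5:**
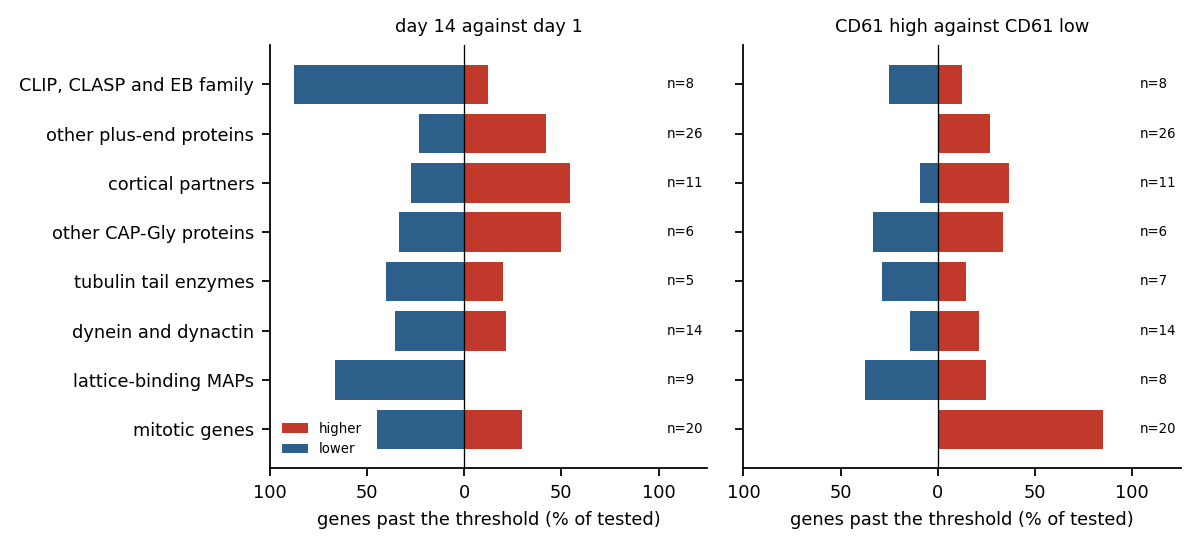
Percent of tested genes in each list that were called higher (red, to the right of 0) or lower (blue, to the left) at day 14 against day 1 and in CD61 high against CD61 low cells, with the number tested beside each bar. The CLIP, CLASP and EB family and the lattice-binding proteins extend mostly to the left at day 14, with 7 of 8 and 6 of 9 genes lower. Of all genes tested, 36% were lower there. The mitotic genes extend only to the right in the sorted cells, where 19.4% of all genes were higher and 16% lower.

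Genes whose level followed a member most closely over the 8 differentiation libraries were found by Pearson's r of log2(CPM + 1) among the 10313 genes whose mean reached 5 CPM. The r values are a description over 8 libraries of 4 days, which share the day effect. For *Clip2* the first 5 were *Caml* (0.995), *Prrx2* (0.993), *Dact2* (0.993), *Psmd5* (0.992) and *Scmh1* (0.991). The first gene was *Ogdh* for *Clip1* (0.998), *Plgrkt* for *Clip3* (0.996), *Smoc2* for *Clasp1* (0.998), *Sec16a* for *Mapre1* (0.994), *Mbnl2* for *Mapre2* (0.996) and *Pnrc2* for *Mapre3* (0.986).

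Annotation limits a few of these values. In GRCm39, exons of *Clip2*, *Clip4*, *Clasp1*, *Mapre2* and *Mapre3* overlap an exon of an antisense long noncoding RNA, and whether the counting used strand is not given in the sources used here. *Clip1* (123715665 to 123822705), *Clip2* and *Mapre3* (30971850 to 31023928) lie on chromosome 5, *Clip3* on chromosome 7 (29991085 to 30007792), *Clasp1* on chromosome 1 (118316788 to 118540619), *Clasp2* on chromosome 9 (113570508 to 113749863) and *Mapre1* on chromosome 2 (153583194 to 153615249).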

How the data were processed

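RNA of 14 Ocy454 libraries was analysed. The deposited CPM values of the differentiation libraries come from reads that the authors aligned by STAR and assigned to genes by HTSeq. They were back-calculated to whole reads for 1 alternative (100% of values lay within 0.01 of a whole read). For the sorted libraries the authors ran Salmon on GRCm39 transcripts and deposited estimated counts, which need not be whole, and TPM values. Versions of STAR, HTSeq and Salmon are not given in the sources used here. Each library has its own deposited column, and all were used.

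Differentiation was tested with limma 3.58.1 (eBayes with a trend, R 4.3.3) on log2(CPM + 1), a scale that understates the change of low genes, for genes above 1 CPM in at least 1 library. Estimated counts were summed per gene, 115556 of 116747 transcripts being matched (at least 99.3% of reads), and rounded. TMM factors were computed before a filter of at least 5 normalized counts in all 6 libraries, and edgeR 4.0.16 (quasi-likelihood, diffSpliceDGE for usage) was used. DESeq2 1.42.0 served as an alternative. P-values were adjusted by Benjamini-Hochberg over all genes or transcripts tested, and calls are at 0.01. The code was tested on simulated data. Replicate numbers are not stated to pair libraries and were not used as pairs.

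The members and the gene lists were chosen with earlier results of these data known. Named in the text are all members, transcripts with at least 10% of a gene's reads in a sorted group, up to 4 called genes of each list with the largest Log2FC and a mean of at least 5 CPM, the 5 genes most like *Clip2* and the first for each other member, except that the one for *Clasp2* is not reported here. In the lists this rule is applied to day 14 against day 1 and to the sorted groups.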

Additional observations from a re-analysis of the deposited data

How the results depend on the processing

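Over 712 repeats of the 48 member results, 647 kept their direction and their side of the threshold, and against day 1 this held in 352 of 360, none of which changed direction. For days, a new filter, the 0.05 threshold, the replicate block or the loss of another day's library left the Log2FC unchanged by construction. Direction could not change in those repeats, so these counts do not measure how firm the results are. From day 7 to day 10, 1 member instead of 2 was higher with no filter on low values, with TMM scaling, with edgeR on recovered reads and as the lowest of the fits without 1 replicate (1 to 2). There, 1 was lower instead of 0 with TMM scaling, edgeR on recovered reads or a threshold of 0.05. From day 10 to day 14, 2 were higher instead of 0 with the same 3 settings (0 to 1 without 1 replicate), and 2 instead of 4 were lower with TMM scaling or edgeR on recovered reads (2 to 4 without 1 replicate). These scalings changed the sign of small Log2FC values, in the order TMM scaling and edgeR on recovered reads: *Clip2* -0.0091 and -0.0086, *Mapre1* -0.031 and -0.031 and *Mapre3* -0.058 and -0.064 from day 7 to day 10, and *Clip2* 0.0090 and 0.0081 from day 10 to day 14. With TMM scaling, 48.2% instead of 61.3% of all genes called from day 7 to day 10 were higher. Without 1 replicate, *Clip2* ranged from -0.0070 to 0.13 and *Mapre3* from -0.072 to 0.091 there. Between sorted groups, 6 members instead of 2 were lower with library size alone, 0 with the offset for transcript length and 1 to 2 without 1 replicate. Library size alone also gave 1122 genes higher (2342 in the reported test) and 4807 lower (1933), so that 18.9% instead of 54.8% of all called genes were higher, and reversed *Clasp2* (-0.14), *Mapre1* (-0.25, adjusted p = 0.0088, edgeR), Clasp1-225 (-0.27), Mapre1-201 (-0.23) and Clasp2-201 (-0.12). The length offset gave *Mapre1* -0.20, and DESeq2 gave Clasp1-225 -0.0095. Without 1 replicate *Mapre2* ranged from -0.064 to 0.023, Mapre2-202 from -0.087 to 0.036 and Clasp1-225 from -0.18 to 0.20. Of the family's transcripts, 2 were higher and 2 lower with DESeq2 or a threshold of 0.05, and 1 was lower with library size alone. Over all transcripts, 1773 calls became 1042 with a filter of 5 counts in 3 libraries, 3734 with DESeq2, 4104 at 0.05 and 624 to 1064 without 1 replicate. The 17 usage calls became 53, 39 and 6 to 13 under that filter, 0.05 and without 1 replicate. The numbers of the replicates are not stated to mark shared cultures. The deviations of same-numbered sorted libraries had r of -0.32, 0.22 and -0.06, and those of other pairs had r of -0.41 to 0.47. With the replicate block, 1 member instead of 2 was lower between sorted groups (*Clip3*, adjusted p = 0.015, edgeR), *Mapre2* was 0.00031, and 602 transcripts and 2 usage calls passed. No other member call changed with the block. The causes of these differences were not tested. Depth limits *Clip4* and transcripts with few reads.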
